A study of Mus musculus with 13 samples.

Results

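The miR-206 and miR-133b cluster is a pair of miRNA hairpins on mouse chromosome 1, Mir206 and Mir133b, each of which gives a 3p and a 5p mature arm. Its members were taken by name: mmu-miR-206-3p (MIMAT0000239), mmu-miR-206-5p (MIMAT0017004), mmu-miR-133b-3p (MIMAT0000769) and mmu-miR-133b-5p (MIMAT0017083), 4 of the 1907 mature miRNAs in the count table. They were followed in small RNA sequencing of plasma from 13 male mice, young adults at the start of the study, in 4 groups. The Givinostat group held 3 dystrophin-deficient mdx mice (C57BL10ScSn-Dmdmdx/J) given the histone deacetylase inhibitor Givinostat by gavage at 37.5 mg/kg, 5 doses a week for 15 weeks. The vehicle group held 4 mdx mice given 0.5% methylcellulose on the same schedule. The naive mdx group held 3 mdx mice with no treatment, and the naive wt group 3 untreated C57BL/10J mice. All 3 mdx groups carry the mdx point mutation of the dystrophin gene in every cell, and the wt mice had no arm given gavage, vehicle or drug. The strain label reads C57BL/10J for every sample, so genotype was taken from the sample titles.

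miRNAs are short RNAs cut from hairpin precursors. One arm is usually kept in the silencing complex, where bases 2 to 8, the seed, pair with target mRNAs, and the other arm is mostly degraded. miR-206 is made almost entirely in skeletal muscle, where it is known for its part in myoblast differentiation, in regeneration and at the neuromuscular junction. It belongs to the seed family of miR-1, which heart muscle makes as well. miR-133b is the near-identical relative of miR-133a, which differs from it only at the 3′ end, and it is enriched in muscle. Damaged fibres release such myomiRs into blood, which is why they are read in plasma of animals with muscular dystrophy.

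The mature sequences are shown because they define what was counted and which arm of each hairpin appeared in plasma. They are from RefSeq on GRCm38.p6, are written 5′ to 3′, and carry the seed in capitals.
miR-206-3p: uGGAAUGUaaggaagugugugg
miR-206-5p: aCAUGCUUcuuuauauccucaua
miR-133b-3p: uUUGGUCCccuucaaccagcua
miR-133b-5p: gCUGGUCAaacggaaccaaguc
The miR-206-3p arm lies at chr1:20679055-20679076 and the miR-206-5p arm at chr1:20679017-20679039. The miR-133b-3p arm lies at chr1:20682834-20682855 and the miR-133b-5p arm at chr1:20682797-20682818, all on the plus strand. A RefSeq mature sequence was matched for 1623 of the 1907 miRNAs, including all 4 members. Among those matched, the GGAAUGU seed of miR-206-3p recurred in miR-6349 and miR-6382, both with 0 counts in all 13 mice, and the other 3 seeds recurred in none. By sequence, neither miR-133a-3p nor miR-1a-3p was compared. These counts of shared seeds therefore leave out miR-1a-3p, of the seed family of miR-206, and miR-133a-3p, which differs from miR-133b-3p only at the 3′ end.

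The 4 arms therefore carry 4 different seeds. The 5p arm of miR-206 resembles the 5p arm of its relative miR-1a-1, which lies on chromosome 2 at 180389057 to 180389079.
miR-1a-1-5p: aCAUACUUcuuuauaugcccaua
Of 23 bases, 20 were the same, and the 3 differences, counted from the 5′ end of miR-206-5p, were G5A, C17G and U19C. The first of these falls in the seed.

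In the hairpins the capitals mark the 5p arm and then the 3p arm, and the loop lies between them.
Mir206: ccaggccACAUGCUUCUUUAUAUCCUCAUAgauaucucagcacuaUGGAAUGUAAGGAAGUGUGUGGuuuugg
Mir133b: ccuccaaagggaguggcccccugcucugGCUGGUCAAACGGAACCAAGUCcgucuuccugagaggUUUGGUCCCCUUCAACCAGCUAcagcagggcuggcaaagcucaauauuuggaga
Mir206 covers 73 bases (chr1:20679010-20679082) and Mir133b 119 bases (chr1:20682769-20682887). The hairpins are 3686 bases apart on the same strand. In GENCODE M21 both lie inside the long non-coding gene Gm28653 (chr1:20669882-20684298). Mir133b is wholly exonic, in exon 3 of a 3-exon transcript and in the single exon of the other transcript. Mir206 has 60 of its 73 bases in that single exon, starts 13 bases before it, and lies in the intron between exons 2 and 3 of the 3-exon transcript.

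**Figure D1:**
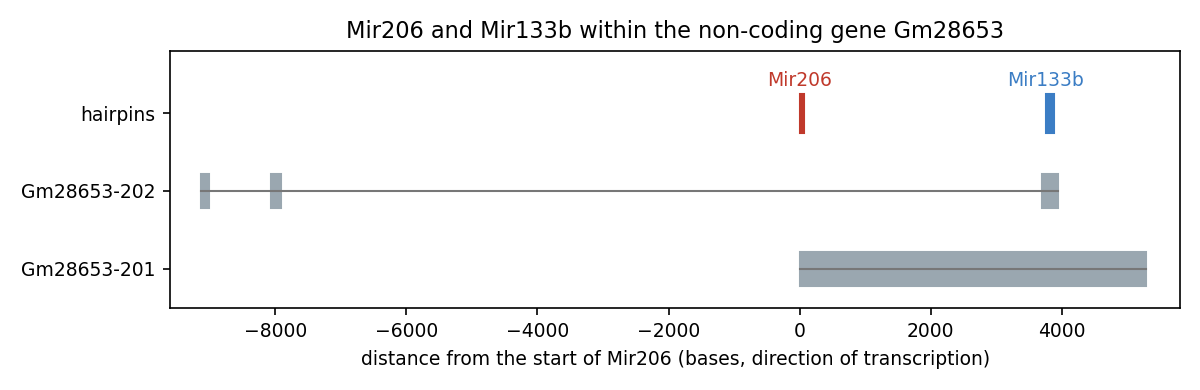
Map of the cluster to scale, with distance in bases from the start of Mir206 on the horizontal axis. The hairpins are in the top row, and grey boxes are the exons of the 2 Gm28653 transcripts. Mir133b starts 3759 bases after Mir206, and the single exon of the transcript in the bottom row starts 13 bases after the start of Mir206.

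Total miRNA counts were 1364813 to 1437031 per library in Givinostat mice, 1283646 to 1522871 in vehicle mice, 1167161 to 1556118 in naive mdx mice and 1446195 to 2899315 in naive wt mice. A count of 3 corresponds to between 1.03 and 2.57 CPM (the count divided by its library total and put on the usual common scale), which is the limit that a count of 0 allows. Intervals and limits of this kind cover counting error only and leave out the spread between mice. The reads also carry no described molecular identifiers, so repeated reads of the same molecule cannot be told apart. Liver and blood cell miRNAs were present in the same plasma. The 5 liver miRNAs (miR-122-5p, miR-122-3p, miR-192-5p, miR-194-5p and miR-802-5p) summed to 3.36% to 6.69% of counts in Givinostat mice, 3.29% to 16.6% in vehicle mice, 1.91% to 11.4% in naive mdx mice and 38.8% to 65.5% in naive wt mice. The 6 red blood cell miRNAs summed to between 0.595% and 1.79% of counts in every library, and the 5 of leukocytes and platelets to between 0.676% and 2.17%.

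miR-206-3p, the arm that acts as the guide strand, was the most abundant miRNA in all 10 mdx libraries. Its raw counts were 268277, 347764 and 302680 in Givinostat mice 31, 34 and 35. They were 321051, 283105, 274075 and 262961 in vehicle mice 40 to 43, and 145192, 285102 and 258722 in naive mdx mice 36, 37 and 39. Naive wt mice 86, 89 and 95 had 15486, 12840 and 11670. Every mdx mouse was above every wt mouse, and naive mdx mouse 36, the lowest of the mdx mice, was still far above the highest wt mouse. The 3 mdx groups overlapped one another.

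As a share of all miRNA counts, miR-206-3p took 22.0% ± 3.41 in Givinostat mice (SD, n = 3), 20.3% ± 2.28 in vehicle mice (n = 4), 16.01% ± 3.31 in naive mdx mice (n = 3) and 0.677% ± 0.249 in naive wt mice (n = 3). In wt libraries it was between the 16th and the 26th most abundant miRNA. After scaling by the trimmed mean of M-values (TMM), it stood at 159968, 272209 and 250400 CPM in Givinostat mice. Vehicle mice had 224002, 208090, 210764 and 168317 CPM. Naive mdx mice had 90885, 201500 and 140454 CPM, and naive wt mice 9802, 7238 and 5487 CPM. The order of group means was Givinostat, vehicle, naive mdx and naive wt, and only the step to naive wt separated the ranges.

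miR-133b-3p was far less abundant in the same libraries, although its hairpin lies beside Mir206. How reads that fit both miR-133b-3p and miR-133a-3p were assigned is not given in the sources used here. This limits every value of miR-133b-3p below. Its raw counts were 540, 673 and 663 in Givinostat mice and 1042, 502, 976 and 1238 in vehicle mice. Naive mdx mice had 1197, 1537 and 909, and naive wt mice 28, 26 and 14. Again no mdx mouse overlapped a wt mouse, and the lowest values among mdx mice were those of vehicle mouse 41 and the 3 Givinostat mice.

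It made up 0.0450% ± 0.00643 of counts in Givinostat mice (SD, n = 3), 0.0661% ± 0.0205 in vehicle mice (n = 4), 0.0877% ± 0.0254 in naive mdx mice (n = 3) and 0.00121% ± 0.000667 in naive wt mice (n = 3). Its rank was 73rd to 102nd in mdx libraries and 252nd to 315th in wt libraries. The TMM-scaled levels were 322, 527 and 548 CPM in Givinostat mice and 727, 369, 751 and 792 CPM in vehicle mice. Naive mdx mice had 749, 1086 and 493 CPM, and naive wt mice 17.7, 14.7 and 6.58 CPM. The group means thus ran from naive mdx through vehicle and Givinostat down to naive wt, the reverse order among mdx groups from that of miR-206-3p, with overlapping ranges in each neighbouring pair of mdx groups.

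**Figure D2:**
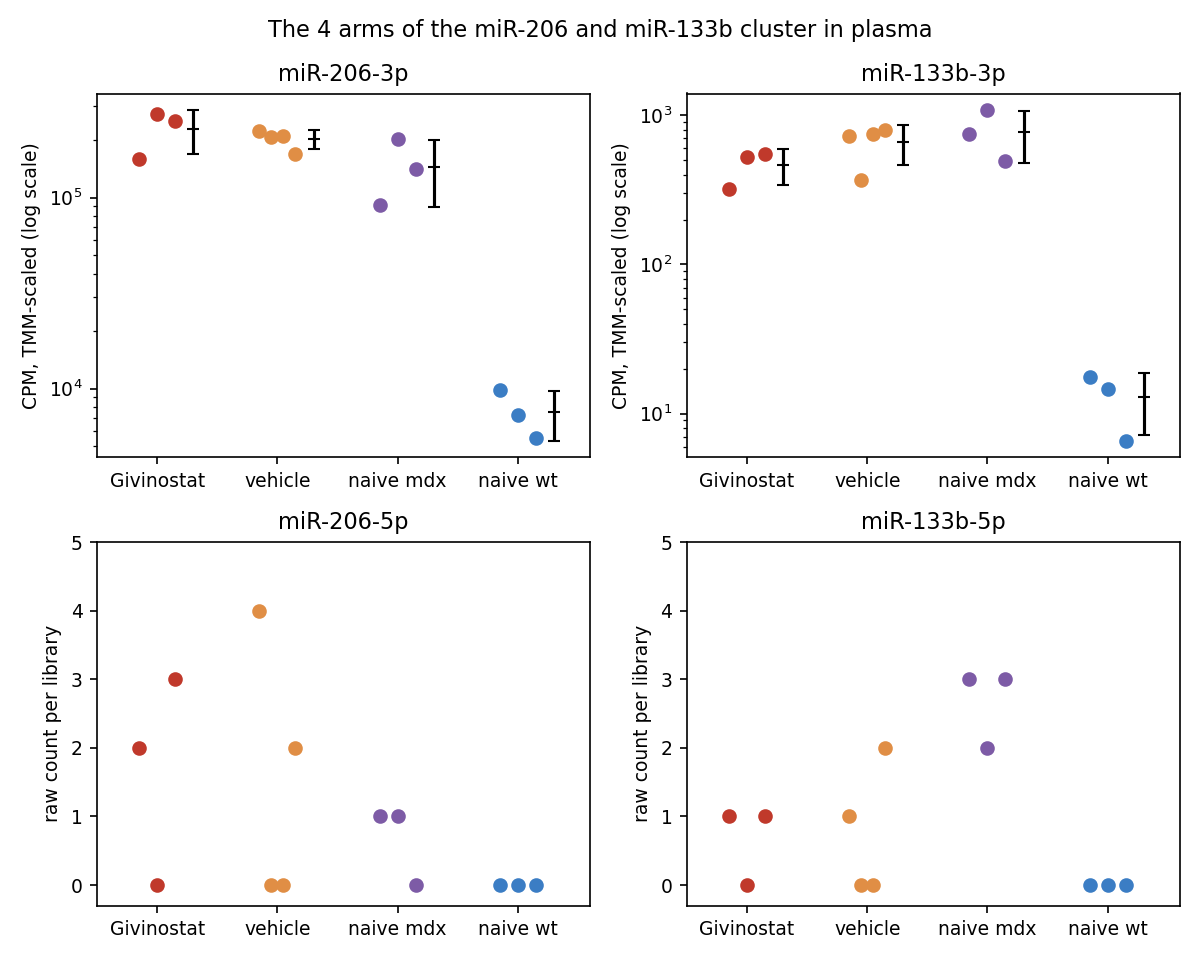
The 4 arms by group, 1 point per mouse. The upper panels give TMM-scaled CPM of the 3p arms on a log axis, with the mean and SD beside the points, and the lower panels give raw counts of the 5p arms. In both upper panels the naive wt points (5487 to 9802 CPM for miR-206-3p, 6.58 to 17.7 CPM for miR-133b-3p) lie below every mdx point, and no 5p arm has more than 4 counts in a library.

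The comparisons with naive wt ask how far each arm is raised in plasma of mdx mice. They share the same 3 wt libraries, so they are not independent of each other. Plasma pools RNA from all tissues, so more cells releasing a miRNA and more of it per cell cannot be told apart. edgeR's quasi-likelihood test was fitted to the 368 miRNAs that passed a filter on low counts, and p-values were adjusted by the Benjamini-Hochberg method over all 368. Of the 4 members, both 3p arms passed the filter and neither 5p arm did. For miR-133b-3p, naive wt mouse 95 was below the filter's level, at 4.83 CPM, so this arm passed only through the mdx groups, where it was high. Its calls and non-overlapping ranges over naive wt are therefore no support for a direction of the cluster. Only those of miR-206-3p can be set against the shares among all tested miRNAs given below.

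In naive mdx mice miR-206-3p was 19.2-fold higher than in naive wt mice (log2 fold change 4.26, SE 0.36, 95% interval 3.50 to 5.03, edgeR adjusted p = 1.46e-07). miR-133b-3p was 60.1-fold higher (log2 5.91, SE 0.46, 4.93 to 6.89, edgeR adjusted p = 1.03e-07). miR-206-3p was called higher and did not overlap between the groups, where 26.9% of all tested miRNAs were called higher and 29.9% had higher, non-overlapping ranges. The call and ranges of miR-133b-3p are not set against these shares, for the reason given above. By size of fold change miR-206-3p stood 11th and miR-133b-3p 3rd of 368.

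Vehicle mice gave a log2 fold change over naive wt of 4.76 for miR-206-3p (SE 0.36, edgeR adjusted p = 5.20e-08) and of 5.68 for miR-133b-3p (SE 0.45, edgeR adjusted p = 5.70e-08). Of these arms, miR-206-3p was again called higher without overlap, against 24.2% called higher and 27.2% not overlapping among all tested miRNAs. Givinostat mice gave 4.92 for miR-206-3p (SE 0.37, 30.3-fold, edgeR adjusted p = 6.85e-08) and 5.17 for miR-133b-3p (SE 0.45, 36.1-fold, edgeR adjusted p = 2.15e-07). Here too miR-206-3p was called higher without overlap, where the background was 22.6% called higher and 28.5% not overlapping. In both comparisons miR-206-3p had the 7th and miR-133b-3p the 4th largest log2 fold change.

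The composition of the wt libraries moved with this difference. miR-122-5p, a miRNA of hepatocytes, took 2.96% to 6.19% of counts in Givinostat mice, 2.98% to 16.1% in vehicle mice, 1.37% to 10.6% in naive mdx mice and 37.6% to 64.6% in naive wt mice. With libraries scaled to their total without miR-122-5p, the naive mdx to naive wt log2 fold changes were 3.53 for miR-206-3p and 5.20 for miR-133b-3p, while the median over all tested miRNAs moved by -0.66. Red blood cell miRNAs differed as well, and not in 1 direction. Of the 6 on that list, miR-486a-5p and miR-486b-5p, which muscle also makes, were called higher than in naive wt in all 3 mdx groups. The other 4, miR-451a, miR-144-3p, miR-144-5p and miR-16-5p, were called lower in naive mdx and vehicle mice, and miR-144-3p and miR-144-5p also in Givinostat mice. The log2 ratio of miR-451a, a miRNA of red blood cells, to miR-23a-3p was -1.03 ± 0.44 in Givinostat mice (SD, n = 3), -1.91 ± 0.22 in vehicle mice (n = 4), -2.20 ± 0.44 in naive mdx mice (n = 3) and 0.01 ± 0.11 in naive wt mice (n = 3). Both terms of the ratio moved in naive mdx over naive wt, miR-451a by a log2 fold change of -1.17 (SE 0.24, edgeR adjusted p = 0.00106) and miR-23a-3p by 1.04 (SE 0.23, edgeR adjusted p = 0.00160), so it is not a measure of red blood cell RNA alone. With this ratio as a covariate the naive mdx to naive wt log2 fold changes fell short of the threshold, at 3.24 for miR-206-3p (edgeR adjusted p = 0.179) and 3.34 for miR-133b-3p (edgeR adjusted p = 0.195), as did miR-133b-3p in vehicle mice at 3.49 (edgeR adjusted p = 0.0512). The ratio did not overlap between wt and mdx mice, so its part and that of the genotype cannot be told apart.

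**Figure D3:**
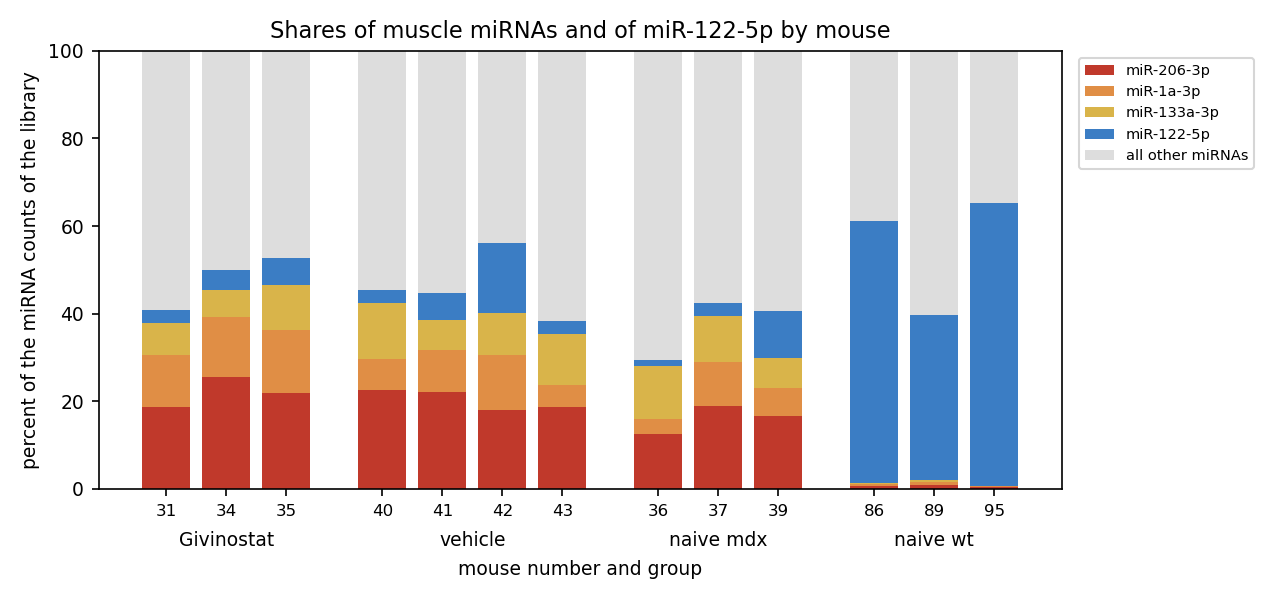
Share of the miRNA counts of each library taken by miR-206-3p and by the muscle miRNAs miR-133a-3p and miR-1a-3p, with hepatocyte miR-122-5p in blue and all other miRNAs in grey, 1 bar per mouse. miR-206-3p takes 12.4% to 25.5% in the 10 mdx mice and 0.403% to 0.888% in the 3 wt mice, where miR-122-5p takes 37.6% to 64.6%.

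Within mdx mice, Givinostat was set against vehicle to ask whether the drug moved the cluster. Neither 3p arm passed the test. The log2 fold change was 0.17 for miR-206-3p (SE 0.29, 95% interval -0.46 to 0.79, edgeR adjusted p = 0.939). For miR-133b-3p it was -0.50 (SE 0.35, -1.23 to 0.23, edgeR adjusted p = 0.719). These intervals leave room for a change in either direction, and the ranges of both arms overlapped between the groups. Among all 368 miRNAs, 0.272% were called in either direction and 7.61% had ranges that did not overlap. The 1 miRNA called was miR-92b-3p, singled out here because it was the only one.

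Vehicle against naive mdx, which differ by 15 weeks of vehicle gavage, also gave no call for either arm. The log2 fold change was 0.49 for miR-206-3p (SE 0.30, 95% interval -0.14 to 1.12, edgeR adjusted p = 0.801). It was -0.23 for miR-133b-3p (SE 0.34, -0.95 to 0.49, edgeR adjusted p = 0.831), and this sign turned without vehicle mouse 41 (0.03) or naive mdx mouse 37 (0.14). Of all tested miRNAs, 0% were called and 2.17% did not overlap, with 17 at an unadjusted p under 0.05 in edgeR and 0 called by DESeq2. The comparison shares its vehicle mice with the one before.

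**Figure D4:**
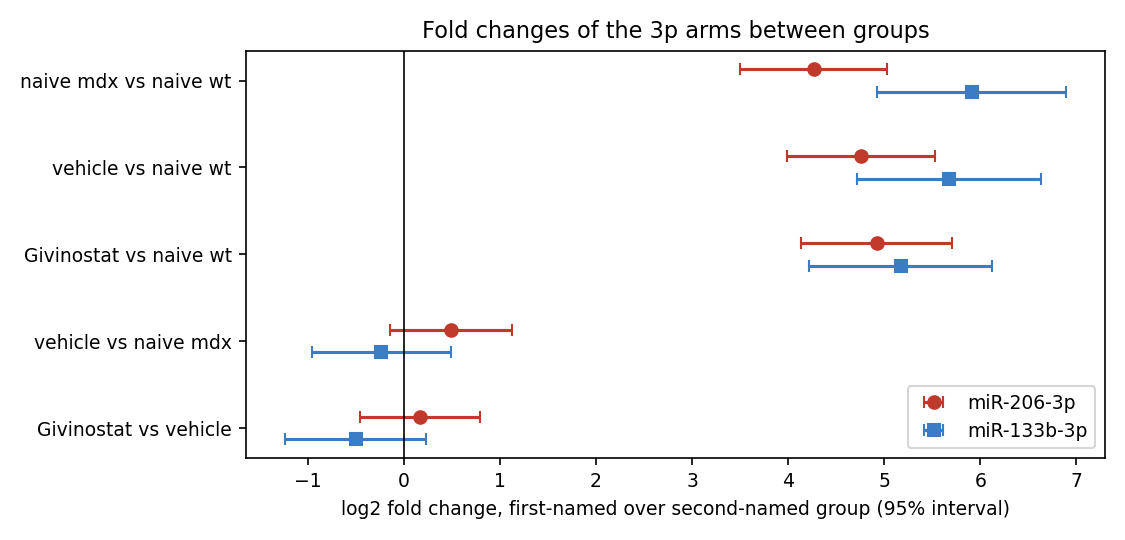
Log2 fold changes of miR-206-3p (circles) and miR-133b-3p (squares) in the 5 comparisons, with 95% intervals from edgeR on the horizontal axis. The 3 comparisons with naive wt lie between 4.26 and 5.91, and the intervals of both comparisons among mdx mice cross 0.

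The 5p arms were almost absent. miR-206-5p had 2, 0 and 3 counts in the Givinostat mice, 4, 0, 0 and 2 in the vehicle mice, 1, 1 and 0 in the naive mdx mice and 0 in each wt mouse. miR-133b-5p had 1, 0 and 1 counts in the Givinostat mice, 1, 0, 0 and 2 in the vehicle mice, 3, 2 and 3 in the naive mdx mice and 0 in each wt mouse. Nearly all of these are at or under the limit of 3 counts, so no fold change was computed between groups.

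Each 5p arm summed to 13 counts over the 10 mdx mice, yet they differed widely as a share of their hairpin. The 5p arm made up 0.000473% of the miR-206 counts (95% Clopper-Pearson interval 0.000252% to 0.000809%), or 1 count for 211456 of the 3p arm. For miR-133b the share was 0.140% (0.0745% to 0.239%), or 1 for 714. In wt mice the 5p arm had 0 of 39996 miR-206 counts, which allows a share of up to 0.00750%, and 0 of 68 miR-133b counts, which allows up to 4.41%. Both limits are above the share in mdx mice, so a difference in arm use between mdx and wt mice was not detectable at this depth for either hairpin. Counts of different sequences also carry the ligation preference of each, which cancels only where the same ratio is compared between mice.

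Ratios within a library do not depend on how libraries are scaled, and 3 of them were compared between groups with two-sided exact permutation tests, 9 tests in all, adjusted together. The first asks whether the clustered miRNAs kept the same proportion. The count of miR-206-3p was 497, 517 and 457 times that of miR-133b-3p in the Givinostat mice. In the vehicle mice the ratio was 308, 564, 281 and 212. In the naive mdx mice it was 121, 185 and 285, and in the naive wt mice 553, 494 and 834. The Givinostat mice lay close together, and all 3 were above all 3 naive mdx mice and within the span of the vehicle mice.

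Over all 10 mdx mice the mean log2 ratio of miR-206-3p to miR-133b-3p was 8.27 ± 0.73 (SD), against 9.22 ± 0.38 in the 3 wt mice, a difference of -0.95 (SE 0.32, exact p = 0.0490, adjusted p = 0.171). The pooled ranges overlapped, and the difference did not pass after adjustment. The 10 mice pool untreated, vehicle and Givinostat mice, whose mean log2 ratios were 7.54, 8.32 and 8.93. Naive mdx mice alone (121 to 285 times) did not overlap naive wt mice (494 to 834 times), a contrast that was not tested. Givinostat minus vehicle was 0.62 (SE 0.30, exact p = 0.229, adjusted p = 0.343), and vehicle minus naive mdx 0.78 (SE 0.46, exact p = 0.171, adjusted p = 0.343). With 3 against 4 mice the smallest exact p is 0.0571, so these tests could not reach 0.05.

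The second ratio sets miR-206-3p against miR-1a-3p, its seed relative. miR-206-3p had the higher count in all 13 mice. It had 1.56, 1.85 and 1.53 times the count of miR-1a-3p in the Givinostat mice, 3.17, 2.30, 1.44 and 3.66 times in the vehicle mice, 3.50, 1.91 and 2.62 times in the naive mdx mice and 2.05, 1.22 and 2.30 times in the naive wt mice. The wt values fell within the range of the mdx values apart from the lowest. The log2 difference was 0.31 for mdx minus wt (SE 0.33, exact p = 0.364, adjusted p = 0.468), -0.60 for Givinostat minus vehicle (SE 0.31, exact p = 0.229, adjusted p = 0.343) and -0.06 for vehicle minus naive mdx (SE 0.39, exact p = 0.914).

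The third ratio sets miR-133b-3p against miR-133a-3p. miR-133b-3p had 0.523%, 0.816% and 0.464% of the miR-133a-3p count in the Givinostat mice, and 0.567%, 0.575%, 0.664% and 0.765% in the vehicle mice. The share was 0.844%, 0.967% and 0.833% in the naive mdx mice and 0.619%, 0.393% and 0.387% in the naive wt mice. Every naive mdx mouse was above every mouse of the other groups. The log2 difference was 0.55 for mdx minus wt (SE 0.24, exact p = 0.0490, adjusted p = 0.171) and -0.13 for Givinostat minus vehicle (SE 0.27, exact p = 0.571, adjusted p = 0.643). For vehicle minus naive mdx it was -0.46 (SE 0.12), at the smallest exact p the design allows (0.0571, adjusted p = 0.171). Since these miRNAs differ only at the 3′ end, a read cut short there fits both, and how such reads were assigned is not given in the sources used here. With their counts summed, the log2 fold change over naive wt was 4.99 in naive mdx mice, 5.26 in vehicle mice and 4.92 in Givinostat mice, with adjusted p-values from edgeR of 2.61e-07, 1.37e-07 and 4.44e-07 in that order.

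**Figure D5:**
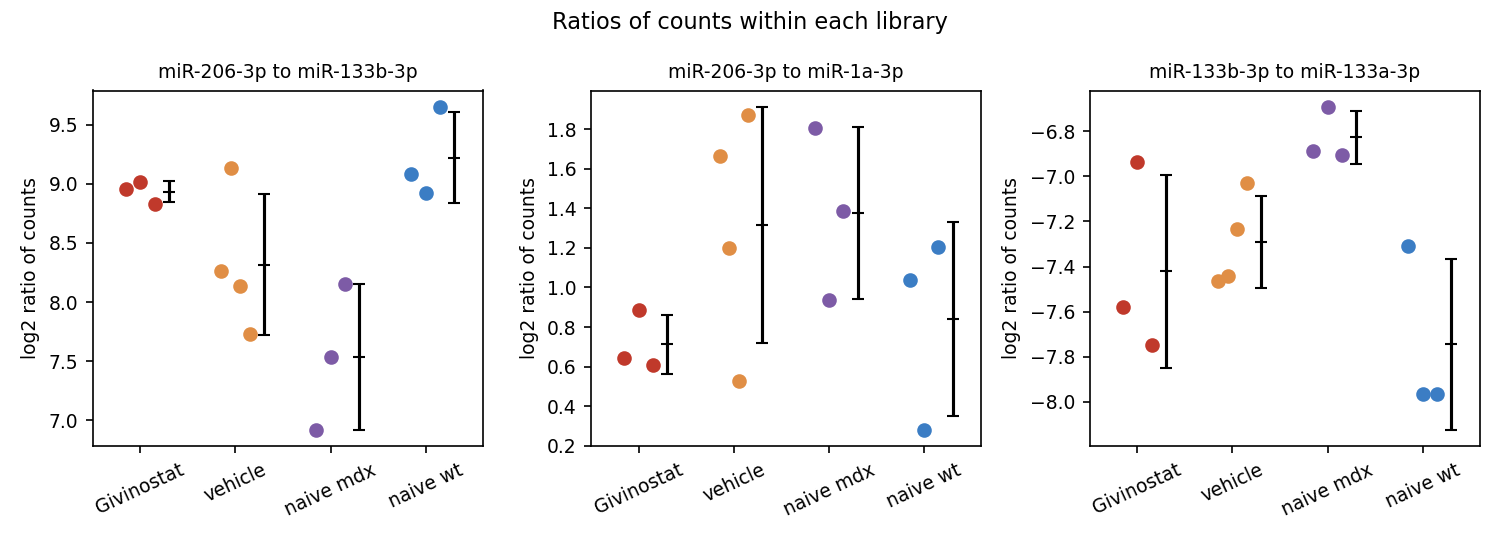
Log2 ratios of counts plus 0.5 within each library, 1 point per mouse, with the mean and SD of each group beside the points. Naive mdx mice are highest in the ratio of miR-133b-3p to miR-133a-3p and low in the ratio of miR-206-3p to miR-133b-3p, where the 3 Givinostat mice lie between 8.83 and 9.01.

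A list of 14 other muscle miRNAs was read in the same fit. Of these, 6 passed the filter, and 5 of the 6 were called higher in each mdx group over naive wt while 0 were called lower. Among all 368 tested miRNAs, 26.9% were called higher in naive mdx mice, 24.2% in vehicle mice and 22.6% in Givinostat mice. Called lower were 61, 85 and 43 of the 368, in the same order. Among the 5, miR-1a-1-5p, miR-208b-3p and miR-133a-5p passed the filter only through the mdx groups, where they were high. For miR-133a-5p, naive wt mouse 95 was below the filter's level, at 4.83 CPM. The calls of these miRNAs are therefore no support for a direction of the list. In Givinostat against vehicle and in vehicle against naive mdx, 0 of the 6 were called by edgeR, and 0 had an unadjusted p under 0.05. Among all 368, 0.272% and 0% were called in these comparisons, and 25 and 17 had an unadjusted p under 0.05 in edgeR. For a list of 6, a count of 0 is near that background.

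In naive mdx over naive wt, miR-133a-5p, the opposite arm of the miR-133a hairpins, had a log2 fold change of 6.51 (SE 0.43), from 13 to 27 counts in wt mice. miR-133a-3p had 4.97 (SE 0.42) and miR-1a-3p 3.82 (SE 0.53), all called by edgeR. The value of miR-206-3p lay between those of miR-133a-3p and miR-1a-3p, and that of miR-133b-3p between those of miR-133a-5p and miR-133a-3p. miR-1a-1-5p had 74 to 95 counts in Givinostat mice, 52 to 97 in vehicle mice, 59 to 148 in naive mdx mice and 0 to 5 in naive wt mice. miR-208b-3p, from an intron of the slow myosin gene Myh7, had 9 to 11 counts in Givinostat mice, 7 to 17 in vehicle mice, 10 to 24 in naive mdx mice and 1 to 4 in naive wt mice. The wt counts of both are at or near the limit of 3 counts, so no fold is given. miR-499-5p, from an intron of Myh7b, was at 0.95 (SE 0.42, edgeR adjusted p = 0.0768) and did not pass in any mdx group.

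The heart miRNA miR-208a-3p had 3 to 7 counts in Givinostat mice, 2 to 25 in vehicle mice, 5 to 11 in naive mdx mice and 0 to 5 in naive wt mice, and did not pass the filter. miR-133c, miR-208b-5p and miR-499-3p had 0 counts in all 13 mice. The 4 remaining members, miR-1a-2-5p, miR-1b-3p, miR-1b-5p and miR-208a-5p, had at most 4 counts in any library.

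Likeness to the cluster was measured as the SD over mice of the log2 ratio of counts to each of the 308 other tested miRNAs that averaged 10 CPM or more, so that a small SD means that a pair kept its proportion. Over the 13 mice miR-206-3p was most like miR-378a-5p (0.49), followed by miR-1a-3p (0.50) and then by miR-133a-3p (0.55), miR-378d (0.67) and miR-378b (0.72). Its cluster partner miR-133b-3p came 8th, at 0.77. The median over all 308 was 2.18, and the SD of the log2 level of miR-206-3p itself was 2.09, the step between mdx and wt mice included.

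miR-133b-3p was most like miR-133a-3p (0.42) and miR-133a-5p (0.58), the arms of its near-identical relative. A read cut short at the 3′ end fits both 3p arms, and miR-133b-3p had only 0.387% to 0.967% of the miR-133a-3p count. The share of such reads in this likeness was not tested. miR-206-3p came 3rd at 0.77, ahead of miR-1a-1-5p (0.85) and miR-378a-5p (0.89), with a median of 2.61. These are descriptions over libraries that share the 4 groups, with no test. The count of miR-378a-5p itself was 2568 to 3166 in Givinostat mice, 2177 to 4561 in vehicle mice, 2171 to 3031 in naive mdx mice and 205 to 272 in naive wt mice, and miR-206-3p had 95.6 to 131, 69.6 to 130, 56.2 to 119 and 42.9 to 68.8 times as many, in the same order of groups.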

How the data were processed

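Plasma RNA from 13 mice was made into NEBNext small RNA libraries and sequenced. The submitters' processing notes name cutadapt 1.4.2, Bowtie 1.0.0 and, for the reads, bcl2fastq 1.37.0. Per the study's methods, short reads were mapped to GRCm38 with no mismatch and annotated with miRBase. The authors deposited raw counts per mature miRNA, summed over isomiRs, and these were used for all main results. The log2 values deposited by the authors equal the log2 count plus 1 constant per library, so that counts of at least 4 add up to 1426717 in every library. These values entered only alternative settings, the limma fits and a repeat of the ratio tests. All columns were matched to a mouse by name. No pair of libraries within a group was a copy (lowest chi-square per degree of freedom 105).

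Counts were TMM-scaled and filtered with filterByExpr (minimum count of 10), which kept 368 of 1203 miRNAs with a count. All 13 libraries entered 1 edgeR 4.0.16 quasi-likelihood fit with the groups as means (R 4.3.3), and a call needed an adjusted p (Benjamini-Hochberg) under 0.05. Ratios used counts plus 0.5 and exact permutation tests (scipy 1.17.1). Both were tested on simulated data first. Alternatives were other scalings and filters, DESeq2 1.42.0, limma 3.58.1, other estimation settings, a covariate, a summed miR-133 row and leaving out each library. The text names the 4 members, miRNAs with the seed of a 3p arm, a list of 14 other muscle miRNAs, the 5 miRNAs most like each 3p arm, and markers where a value turns on them. The members and lists were chosen with earlier results of these data known.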

Additional observations from a re-analysis of the deposited data

Results flagged for a closer look

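1 value stood apart from the rest of its group. The TMM-scaled level of miR-133b-3p in vehicle mouse 41 was 369 CPM, while the other 3 vehicle mice had 727, 751 and 792 CPM, and its gap to the nearest of them was 0.846 of the range of the group, above Dixon's limit for 4 samples. Taken as a share of the library's counts, the same mouse gave a gap of 0.510 and was under the limit. Only the vehicle group is large enough for this rule, 7 of its values were examined, and chance alone passes about 1 group in 20. The same mouse had the highest ratio of miR-206-3p to miR-133b-3p of the mdx mice, at 564. Without it the log2 fold change of miR-133b-3p was 0.03 for vehicle over naive mdx mice.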

How the results depend on the processing

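Over 27 or 28 alternatives per comparison, miR-206-3p and miR-133b-3p were called higher than in naive wt in every mdx group, except with the miR-451a to miR-23a-3p ratio as a covariate. That covariate gave 3.24 (edgeR adjusted p = 0.179) and 3.34 (0.195) for the arms in naive mdx over naive wt and 3.49 (0.0512) for miR-133b-3p in vehicle over naive wt. Over all alternatives the adjusted p of these 3 results ran from 4.09e-41 to 0.179, from 1.76e-42 to 0.195 and from 2.48e-47 to 0.0512. The covariate also turned the sign of miR-133b-3p in Givinostat over vehicle (0.51) and in vehicle over naive mdx (0.15), which was 0.27 with miR-133a-3p summed in. Leaving out 1 library moved miR-133b-3p in vehicle over naive mdx between -0.41 and 0.14, the log2 ratio of miR-206-3p to miR-1a-3p in the same comparison between -0.28 and 0.20 (above 0 without vehicle mouse 42 or naive mdx mouse 36), and the ratio of miR-133b-3p to miR-133a-3p in Givinostat against vehicle between -0.37 and 0.034 (above 0 without Givinostat mouse 35). The cause was not tested.

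Over all miRNAs, 160 were called in naive mdx over naive wt, 174 in vehicle over naive wt and 126 in Givinostat over naive wt, against 1, 2 and 22 with the covariate, and 212, 244 and 235 on library totals without miR-122-5p. Givinostat against vehicle gave 1 call, and 0 to 6 under alternatives. Vehicle against naive mdx gave 0 throughout. The median log2 fold change over naive wt moved by 0.39, 0.20 and 0.15 (naive mdx, vehicle, Givinostat) on library totals and by -0.66, -0.86 and -0.90 on totals without miR-122-5p, and with upper-quartile factors by -0.23 in naive mdx and -0.18 in vehicle mice. The higher and lower calls in naive mdx over naive wt were 99 and 61 with TMM, 82 and 96 with upper-quartile factors, 118 and 23 on library totals, and 56 and 156 without miR-122-5p. For vehicle they were 89 and 85, 76 and 109, 88 and 44, and 51 and 193, and for Givinostat 83 and 43, 75 and 49, 77 and 18, and 37 and 198. No paired analysis was possible because the groups share no animal numbers. Groups of 3 or 4 mice and 14 to 28 counts of miR-133b-3p in wt mice limit the precision.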

Other observations

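Within the 10 mdx mice alone the neighbours of both arms were different ones, named here after their values were seen. miR-133b-3p kept its proportion best to miR-193b-3p, a miRNA of brown fat and muscle. It had 4.74, 5.10 and 3.95 times the miR-193b-3p count in Givinostat mice, 4.09, 4.69, 4.88 and 4.18 times in vehicle mice, and 4.99, 4.60 and 4.97 times in naive mdx mice, an SD of 0.13 on the log2 scale. In naive wt mice the ratio was 0.778, 0.963 and 0.333. The nearest of the others was miR-133a-3p at an SD of 0.35, and the median over 308 miRNAs was 0.71.

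miR-206-3p kept its proportion best to miR-143-3p, a miRNA of smooth muscle and fibroblasts, with an SD of 0.22 against a median of 0.62. miR-30a-3p (0.23) and miR-676-5p (0.24) were almost as close. The SD of the log2 level of miR-206-3p itself over these mice was 0.46. miR-206-3p had 20.7 to 29.2 times the miR-143-3p count in Givinostat mice, 20.9 to 32.8 times in vehicle mice, 25.4 to 27.4 times in naive mdx mice and 0.618 to 1.47 times in naive wt mice. miR-133b-3p stood only 211th of 308 in likeness to miR-206-3p among mdx mice (SD 0.73), although the hairpins are neighbours. These are the closest of 308 comparisons over the same 10 libraries and were given no test.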
